A study of Drosophila melanogaster with 18 samples.

Results

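The genes described here are regulators and executors of apoptosis in Drosophila melanogaster, followed passage by passage in the cell lines R7 and R3. The list names 10 genes, and each is represented by its brightest probe set among those annotated with exactly 1 gene symbol. A probe set was named here for 6 of the 10 genes, skl, Diap2, Dronc, Dcp-1, Dark and p53, of 11982 genes with a named probe set on the array. The members Diap1, rpr, hid and Drice have no probe set named in the annotation used here and were not analysed.

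Fly cells die by apoptosis when proteins of the reaper, hid, grim and sickle group bind the inhibitor of apoptosis proteins and free the caspases that these hold in check. The initiator caspase Dronc is activated on a scaffold built by the adaptor Dark, and it cleaves the effector caspases Drice and Dcp-1. The transcription factor p53 induces members of the reaper group after DNA damage, and in fly embryos these genes are a main control point for which cells are removed.

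Total RNA was hybridised to 18 Affymetrix 3' expression arrays, 9 per line, with each line sampled as 1 passage series from early culture on. R7 was sampled at P2 (2 replicates) and P3 as the early stage, at P4, which the stated ranges place in early as well as intermediate culture and which was kept as its own group, at P7 and P8 (intermediate), and at P16, P17 and P19 (late). R3 was sampled at P2 (2 replicates) as the early stage, at P5, P6, P7 and P8 (intermediate), and at P16, P17 and P19 (late). The labels name no treatment and no genotype, and both lines were grown in Schneider's medium with fetal bovine serum. Nothing in the labels says that the P2 replicates come from separate cultures, and later arrays of a stage are different passages of the same line, so p-values measure the spread between passages and arrays. The series was made to follow genes expressed together during immortalization and to find signatures of progenitor cells.

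The values are deposited probe set intensities on a linear scale. Values below an intensity of 32 were treated as not measured and set to this floor before log2 was taken, and the 10200 probe sets above it on at least 2 arrays were tested. All 6 members were tested. Diap2, Dronc, Dcp-1, Dark and p53 lay above the floor on every array. The skl probe set lay above it on 9 of 9 R7 arrays and on 3 of 9 R3 arrays (the P2 replicates and P7). Dark and p53 each have another probe set, which lay at the floor on all 18 arrays.

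The array labelled R3 P2 replicate 2 correlated more closely with R3 P6 (Pearson r = 0.990 over tested probe sets) than with R3 P2 replicate 1 (0.951), and R3 P19 correlated more closely with R3 P2 replicate 1 (0.994) than with R3 P17 (0.939). Between the P2 replicates, 2 tested probe sets in R7 and 782 in R3 differed by over 2-fold. R3 results are therefore given with and without these 2 arrays, and without them R3 early is 1 array. Of the markers checked, 5 of 6 adult muscle precursor genes lay above the floor on all R7 late arrays and 4 of 6 on all R3 late arrays. On the early arrays of each line this count was 5 of 6. The late counts in R7 and R3 were 8 and 9 of 11 for haemocyte markers and 2 and 2 of 7 for neuroblast markers. For neuron markers they were 1 and 2 of 3, and for fat body markers 0 and 1 of 3.

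**Figure D1:**
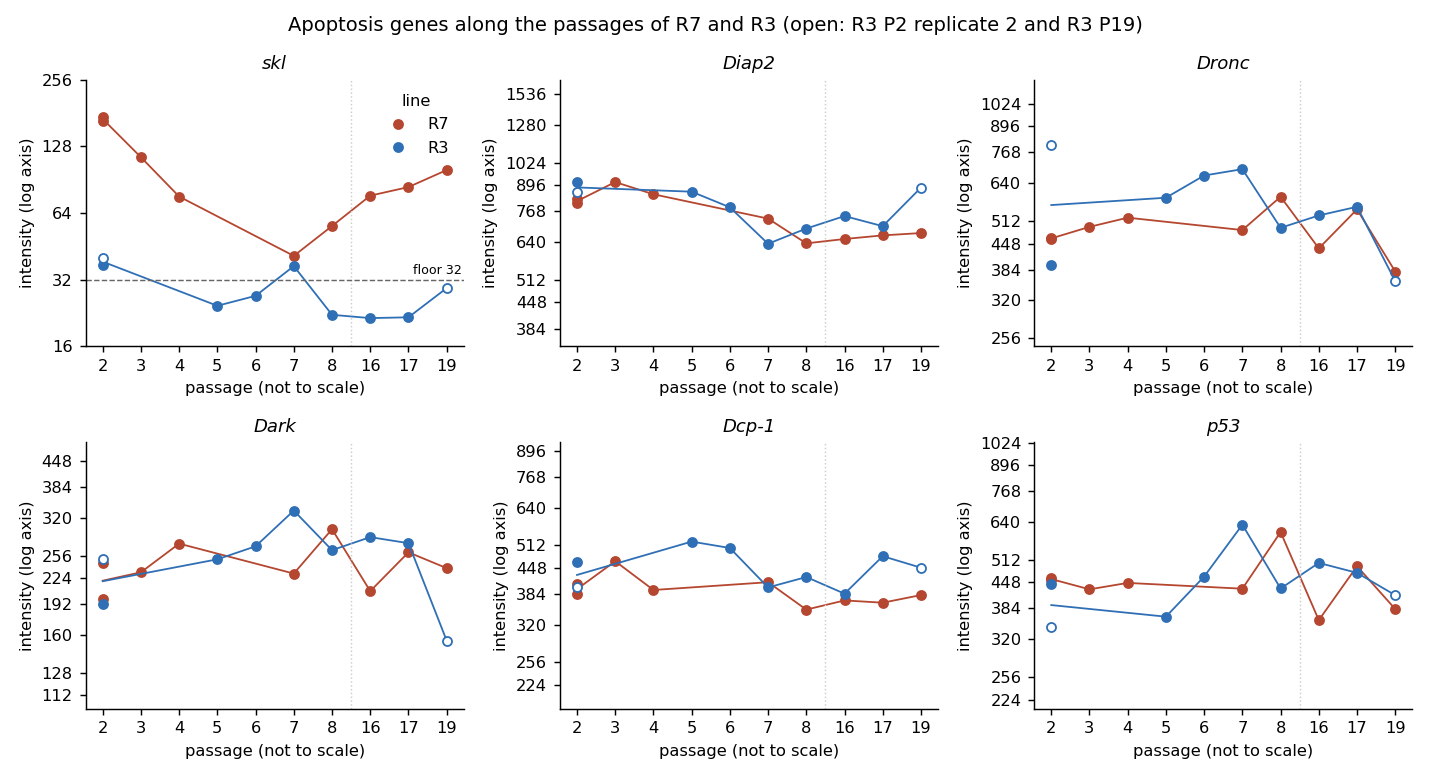
Deposited intensity (log axis) of the 6 measured genes against passage (evenly spaced, not to scale) in R7 (red) and R3 (blue). Each point is 1 array, lines pass through the mean of the P2 replicates, and open points mark R3 P2 replicate 2 and R3 P19. In R7 skl is high at P2, lowest at P7 (40.9) and between these in late arrays, while all R3 arrays lie at 39.8 or below.

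The gene skl was the member that differed most between the lines and between the stages of R7. It encodes Sickle, a small protein of the reaper group. In R7 its intensity was 174 and 166 at P2, 114 at P3, 75.9 at P4, 40.9 at P7, 55.8 at P8, 76.6 at P16, 83.8 at P17 and 99.99 at P19. The early, intermediate and late arrays of R7 did not overlap, with the lowest values at the intermediate stage and late values between those of the other stages. In bulk RNA, fewer cells that express a gene and less RNA per cell cannot be told apart.

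From early to intermediate passages of R7, skl fell 3.12-fold, to 48.4 ± 10.6 (SD, n = 2 arrays) in intermediate arrays against 151.5 ± 32.5 (n = 3) in early arrays (log2 -1.64 ± 0.17 SE, limma adjusted p = 0.000122). Of the tested probe sets, 2.48% were called in this comparison and 1.25% were called lower, and skl was the 1 member of 6 called. From intermediate to late passages it rose 1.80-fold, to 86.8 ± 12.0 (n = 3) in late arrays against 48.4 ± 10.6 (n = 2) in intermediate arrays (log2 0.85 ± 0.17 SE, limma adjusted p = 0.0135). Of the tested probe sets, 4.68% were called here and 2.02% were called higher, and skl was again the 1 member called. Late arrays remained below early ones, by 1.73-fold (log2 -0.79 ± 0.16 SE, limma adjusted p = 0.00452).

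The rise from intermediate to late rested on few arrays. It was not called without R7 P7 (0.63, limma adjusted p = 0.265) or without R7 P19 (0.75, adjusted p = 0.0610), and 6 of 12 other processing settings also ended the call. Moving by passage, the step from P2 to P3 was -0.57 (log2), from P3 to P4 -0.59, from P4 to P7 -0.89, from P7 to P8 0.45 and from P8 to P16 0.46. Each step is between single arrays, apart from the mean of the P2 replicates, which differed by 0.07 (log2), and was not tested.

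In R3, skl stayed near or below the floor. Its intensity was 37.3 and 39.8 at P2, 24.3 at P5, 27.0 at P6, 36.8 at P7, 22.2 at P8, 21.4 at P16, 21.6 at P17 and 29.3 at P19. The highest R3 array, R3 P2 replicate 2, lay just below the lowest R7 array, R7 P7 (40.9), so the lines did not overlap. No stage difference of skl in R3 was called, with or without the 2 arrays that stand apart (log2 from early to late -0.27 with and -0.22 without them, limma adjusted p = 0.887 and 0.681).

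R7 exceeded R3 for skl at both ends of the series. In early arrays it was 3.87-fold higher, with 151.5 ± 32.5 (SD, n = 3) in R7 and 38.5 ± 1.8 (n = 2) in R3 (log2 1.95 ± 0.17 SE, limma adjusted p = 3.45e-05, and 0.000966 without the 2 R3 arrays). In late arrays, where all 3 R3 arrays lay at the floor, it was at least 2.69-fold higher (limma adjusted p = 0.000121, and 0.000937 without the 2 R3 arrays). At the intermediate stage 3 of 4 R3 arrays lay at the floor, and the difference was not called (log2 0.53 ± 0.17 SE, adjusted p = 0.180). Of the tested probe sets, 1.07% were called between the lines in early arrays (0.961% higher in R7), 1.88% in intermediate arrays and 7.63% in late arrays (5.27% higher in R7). Without the 2 R3 arrays these shares were 1.69% in early and 11.2% in late arrays. In both fits skl was the 1 member of 6 called in early and in late arrays.

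The p-values of skl lean on the R3 arrays, 6 of 9 of which were set to the floor and so have no spread there. When the compared arrays alone were fitted, the adjusted p was 0.0733 for the fall to the intermediate stage, 0.0583 for late against early in R7, 0.283 for R7 against R3 in early arrays and 0.0234 in late arrays. At a floor of 64 the late difference between the lines was 0.43 (log2, adjusted p = 0.0576).

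Summed markers of neuroblasts, haemocytes and fat body, like skl, reached their highest levels in R7 early arrays. Neuron markers also had their highest sum there (926, against at most 850 in R7 late arrays), and adult muscle precursor markers did not. The summed intensity of the 7 neuroblast markers lay between 664 and 939 in R7 early arrays, was 412 at P4 and lay between 523 and 596 in intermediate and 347 and 517 in late arrays. All 7 lay above the floor on every R7 early array, and 3 and 2 did so on every intermediate and every late array. In R3 the sum lay between 202 and 580. The members of this list differed in course. The transcription factor gene grh carried much of the intermediate sum, with 369 and 270 at P7 and P8, and lay at or below 16.6 in late arrays. Between late and early R7 arrays, 6 of the 7 were called lower and mira was not called, against 11.2% of tested probe sets called lower. Of the 6, wor, dpn and pros lay above the floor on the 3 R7 early arrays alone. They passed the filter through that group and could only be called lower, so the count cannot be weighed against that share. The gene mira had a high, low and high course like skl, but unlike skl was higher at P16 and P19 than at P2. It had 243 and 226 at P2, 162 at P3, 97.5 at P4, 89.6 at P7, 107 at P8, 325 at P16, 201 at P17 and 359 at P19. It was the 1 of the 7 called higher in late than in intermediate R7 arrays (log2 1.55, limma adjusted p = 0.0262) and in R7 than in R3 late arrays (2.34, adjusted p = 0.000724). The 11 haemocyte markers summed to between 4741 and 14899 in R7 early arrays, 2459 at P4, between 4762 and 5850 in intermediate arrays and between 1756 and 3420 in late arrays, with 10, 10, 9 and 8 of the 11 above the floor on every array of these groups, and to between 4736 and 7989 in R3. The 3 fat body markers summed to between 266 and 1902 in R7 early arrays, 103 at P4, between 62.3 and 67.3 in intermediate and 23.7 and 42.4 in late arrays, and to at most 551 in R3. Both tested ones, apolpp and Fbp1, were called lower in late than in early R7 arrays, with apolpp at the floor in all 3 late arrays (limma adjusted p = 0.00602). Fbp1 lay above the floor on the 2 R7 P2 replicates alone (103 and 111). It passed the filter through the early group and could only be called lower. The part of these markers in the skl result was not tested.

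The inhibitor gene Diap2 declined along the passages of R7 by a small amount. Diap2 encodes an inhibitor of apoptosis protein that can bind caspases and acts as a ubiquitin ligase in the Imd immune pathway. In R7 its intensity was 827 and 806 at P2, 914 at P3, 850 at P4, 736 at P7, 636 at P8, 652 at P16, 667 at P17 and 676 at P19. All 3 late arrays lay below all 3 early ones. The late mean was 665 ± 11.8 (SD, n = 3) against 849 ± 57.3 (n = 3) in early arrays, 1.28-fold lower (log2 -0.35 ± 0.12 SE, limma adjusted p = 0.0484).

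That call stood at the edge of the threshold. It was lost when any 1 of the 6 R7 early and late arrays was left out, with limma adjusted p from 0.0883 (without R7 P2 replicate 2) to 0.132 (without R7 P3). It was also lost without R7 P7, R7 P8, R3 P2 replicate 1, R3 P2 replicate 2, R3 P6, R3 P8 or R3 P16, which enter through the shared spread (0.0528 to 0.0604), and with equal array medians (log2 -0.11, adjusted p = 0.484). In R3 Diap2 had 912 and 860 at P2, 863 at P5, 787 at P6, 634 at P7, 694 at P8, 747 at P16, 704 at P17 and 884 at P19. The R3 late arrays overlapped the early ones through R3 P19 alone. The R3 difference was -0.19 ± 0.13 SE (log2, limma adjusted p = 0.891), and -0.33 ± 0.16 SE (adjusted p = 0.237) without the 2 arrays that stand apart. The change in R7 minus that in R3 was -0.16 (95% interval -0.53 to 0.22, adjusted p = 0.688), so a difference between the lines was not shown.

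Between late and early arrays of R7, 2 of the 6 members were called, both lower, which is 33.3% of them, against 11.2% of tested probe sets called lower and 19.9% called in either direction (29.7% without the 2 R3 arrays, with the same 2 members called). The median difference of the 6 members was -0.15 (log2), against -0.03 over all tested probe sets. Between late and early arrays of R3, 0 members were called, as were 0 of the tested probe sets by limma (0%), of which 613 had an unadjusted p under 0.05. Without the 2 R3 arrays, 10.1% of tested probe sets were called in R3 and still none of the 6 members. The same held for intermediate against early arrays of R3 (0% called, and 9.54% without the 2 arrays) and for late against intermediate arrays (0% and 0.0894%).

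**Figure D2:**
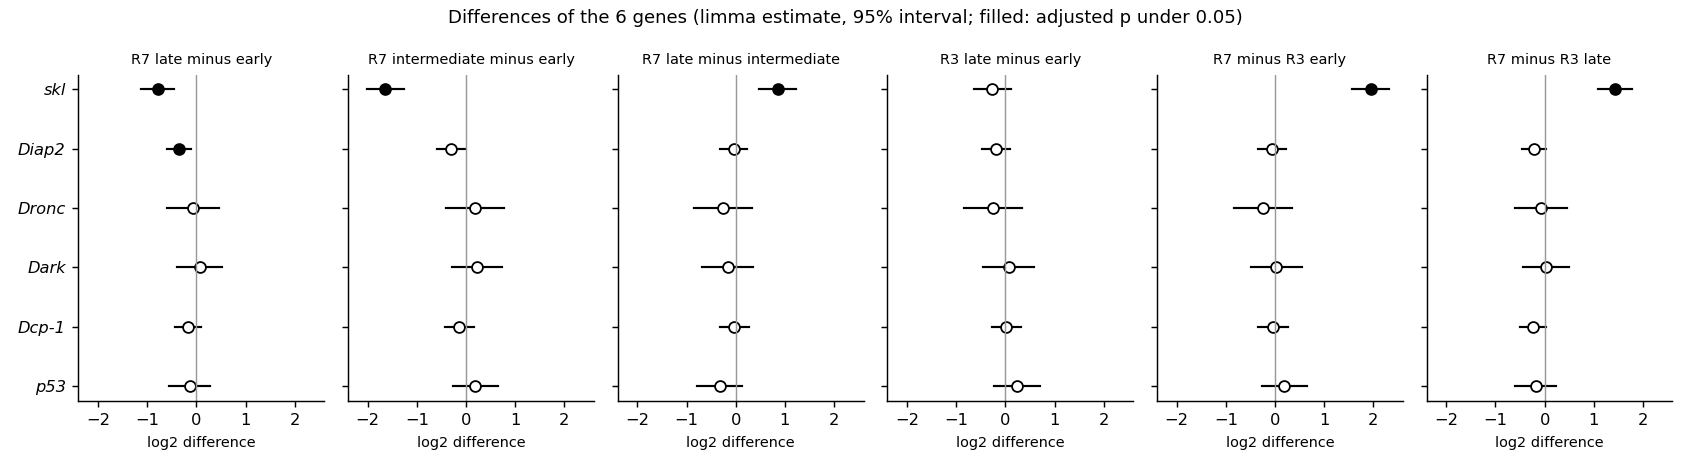
Log2 differences of the 6 genes in 6 comparisons, with limma's 95% interval. Filled points have an adjusted p under 0.05. Those filled are skl in 5 comparisons and Diap2 in R7 late minus early, and the intervals of Dronc, Dark, Dcp-1 and p53 include 0 in each of the 6 comparisons.

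The initiator caspase gene Dronc showed no called stage difference in either line. Its intensity in R7 was 462 and 461 at P2, 494 at P3, 522 at P4, 485 at P7, 591 at P8, 435 at P16, 548 at P17 and 380 at P19. These values lay between 380 and 591, the late arrays lying on both sides of the early ones. The R7 change from early to late was -0.07 (log2, 95% interval -0.60 to 0.45, limma adjusted p = 0.885).

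In R3, Dronc depended on which arrays were counted. It had 393 and 805 in the P2 replicates, 587 at P5, 670 at P6, 696 at P7, 492 at P8, 529 at P16, 557 at P17 and 358 at P19. The P2 replicates were 2.05-fold apart, and the lowest values of the line were in R3 P19 and R3 P2 replicate 1. The change from early to late was -0.25 ± 0.27 SE (log2) with all arrays and 0.46 ± 0.23 SE without R3 P2 replicate 2 and R3 P19, with limma adjusted p of 0.956 and 0.236. The sign of this difference therefore turned with those arrays, and neither value was called.

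Dark, which encodes the Apaf-1 related adaptor that activates Dronc, had 246 and 199 at P2 of R7, 232 at P3, 275 at P4, 230 at P7, 300 at P8, 208 at P16, 261 at P17 and 238 at P19. The late and early arrays of R7 overlapped, and the change was 0.06 (log2, 95% interval -0.40 to 0.52, limma adjusted p = 0.886). In R3 it had 193 and 251 at P2, 251 at P5, 271 at P6, 335 at P7, 265 at P8, 286 at P16, 276 at P17 and 155 at P19. As for Dronc, R3 P19 and R3 P2 replicate 1 were the lowest arrays of the line. The R3 change was 0.07 ± 0.24 SE with all arrays and 0.54 ± 0.21 SE without the 2 that stand apart (limma adjusted p = 1 and 0.128).

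**Figure D3:**
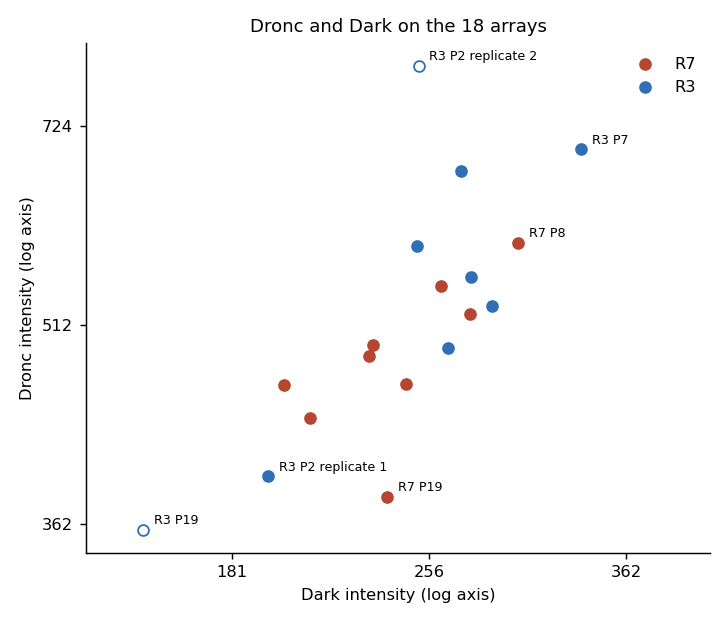
Dronc against Dark intensity (both log axes) on the 18 arrays, R7 in red and R3 in blue, with open points for R3 P2 replicate 2 and R3 P19. R3 P19 is lowest for both genes (155 for Dark, 358 for Dronc), and R3 P7 is highest for Dark (335), with R7 P8 the highest R7 array for both.

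The p53 probe set moved in step with Dronc and Dark within R7. In R7 p53 had 459 and 455 at P2, 430 at P3, 447 at P4, 432 at P7, 604 at P8, 358 at P16, 493 at P17 and 383 at P19. Dronc, Dark and p53 were all highest in R7 at P8. Over the 9 R7 arrays Pearson's r of the log2 values was 0.84 for Dronc and p53, 0.70 for Dark and p53 and 0.66 for Dronc and Dark. Among the 15 pairs of members, Diap2 and Dcp-1 also reached 0.83 on these arrays. These are descriptions over successive passages that share a culture and their arrays, and P8 is 1 array.

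In R3 p53 had 445 and 345 at P2, 366 at P5, 464 at P6, 630 at P7, 432 at P8, 503 at P16, 474 at P17 and 415 at P19. Dark and p53 were highest in R3 at P7. Over the 9 R3 arrays r was 0.77 for Dronc and Dark, 0.49 for Dark and p53 and 0.03 for Dronc and p53. No stage difference of p53 was called in either line: the change from early to late was -0.14 (95% interval -0.55 to 0.28) in R7 and 0.24 (-0.22 to 0.70) in R3, both in log2.

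The effector caspase gene Dcp-1 was one of the steadiest members. In R7 it had 407 and 384 at P2, 466 at P3, 393 at P4, 412 at P7, 350 at P8, 370 at P16, 365 at P17 and 382 at P19. The 3 late arrays lay within 365 to 382, below all early arrays (384 to 466), and the difference was not called (log2 -0.17 ± 0.12 SE, limma adjusted p = 0.380). In R3 it had 463 and 399 at P2, 524 at P5, 504 at P6, 399 at P7, 425 at P8, 385 at P16, 480 at P17 and 449 at P19. The late and early R3 arrays overlapped, with a difference of 0.02 (95% interval -0.28 to 0.32).

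Between the lines, Diap2, Dronc, Dcp-1, Dark and p53 were not called at any stage. In late arrays the differences R7 minus R3 were -0.22 for Diap2, -0.23 for Dcp-1, -0.18 for p53, -0.07 for Dronc and 0.03 for Dark (log2, limma adjusted p from 0.310 to 1). Without the 2 R3 arrays Dark turned to -0.26 and Dronc was -0.27, neither called. The change from early to late did not differ between the lines by limma for any of the 6 members, with 2.91% of tested probe sets called and 4.08% without the 2 R3 arrays. For skl it was -0.52 (adjusted p = 0.276), which is bounded by the floor in R3.

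The spread of each gene over the 18 arrays put these steps in proportion. From the lowest to the highest array, skl spanned 2.45 (log2, from the floor), Dronc 1.17, Dark 1.11, p53 0.87, Dcp-1 0.58 and Diap2 0.53, where the median span of tested probe sets was 0.72. Dronc and Dark spanned 0.87 and 0.79 without R3 P2 replicate 2 and R3 P19.

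Genes with a like pattern were sought for the members that spanned at least 1 (log2), which were skl, Dronc and Dark. The genes whose levels most resembled skl over the 18 arrays were CG43066 (Pearson r = 0.97), insb (0.95) and CG13928 (0.94), among 7921 genes. CG43066 ran from 10.4 to 88.6 and insb from 27.1 to 105.6, so both were also weak signals, and CG13928 ran from 43.5 to 338.3. Values were floored at 32 before r was taken. Arrays at the floor have the same value in skl, CG43066 and insb, which can raise r. For Dronc they were CG1703 (0.91), B4 (0.90) and CG18549 (0.90), and for Dark they were Nt5b (0.92), rec (0.91) and Ndc1 (0.91). Each r is over arrays of which 9 belong to each line, so a difference between the lines also raises it.

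Around these members, 44 further genes of the death pathway were listed, of which 36 had a named probe set and 31 were tested. Between late and early arrays of R7, 3 of the 31 rose and 1 fell, 12.9% of them, against 19.9% of tested probe sets called (8.75% higher and 11.2% lower). Without the 2 R3 arrays that stand apart, 6 rose and 2 fell, 25.8% of the 31 against 29.7% of tested probe sets, the added genes being wgn, Traf4 and drpr (higher) and eIF3m (lower). The median difference of the 31 was 0.16 (log2), against -0.03 over all tested probe sets. Between late and early arrays of R3, 0 of the 31 were called, and 3 rose without those 2 arrays, where 3.86% of tested probe sets did.

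Among the tumour necrosis factor and Jun kinase (JNK) genes, puc was the clearest. The gene puc encodes a phosphatase that restrains JNK and is itself induced by JNK signalling, which can drive apoptosis. In R7 puc had 757 and 688 at P2, 627 at P3, 649 at P4, 700 at both P7 and P8, 1165 at P16, 1106 at P17 and 1306 at P19. The late arrays of R7 lay above all other arrays of either line. The late mean was 1192 ± 102 (SD, n = 3) against 691 ± 64.9 (n = 3) in early arrays, 1.73-fold higher (log2 0.79 ± 0.12 SE, limma adjusted p = 0.000783).

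In R3 puc had 844 and 616 at P2, between 635 and 755 at P5 to P8, and 725, 642 and 717 in late arrays. Late and early R3 arrays overlapped, and the change was -0.06 (log2). The change in R7 exceeded that in R3 by 0.84 ± 0.18 SE (log2, limma adjusted p = 0.0202, and 0.00626 without the 2 R3 arrays). Of the tested probe sets, 1.65% were called with a higher change in R7. The call of puc was lost without R3 P17 (limma adjusted p at the threshold, 0.05), R7 P2 replicate 2 (0.0524) or R7 P19 (0.0577), when the compared arrays alone were fitted (0.0876), and with the replicate number and passage as a block (0.0509). In late arrays puc was 1.71-fold higher in R7 than in R3 (adjusted p = 0.00144), a call kept with each array left out in turn.

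**Figure D4:**
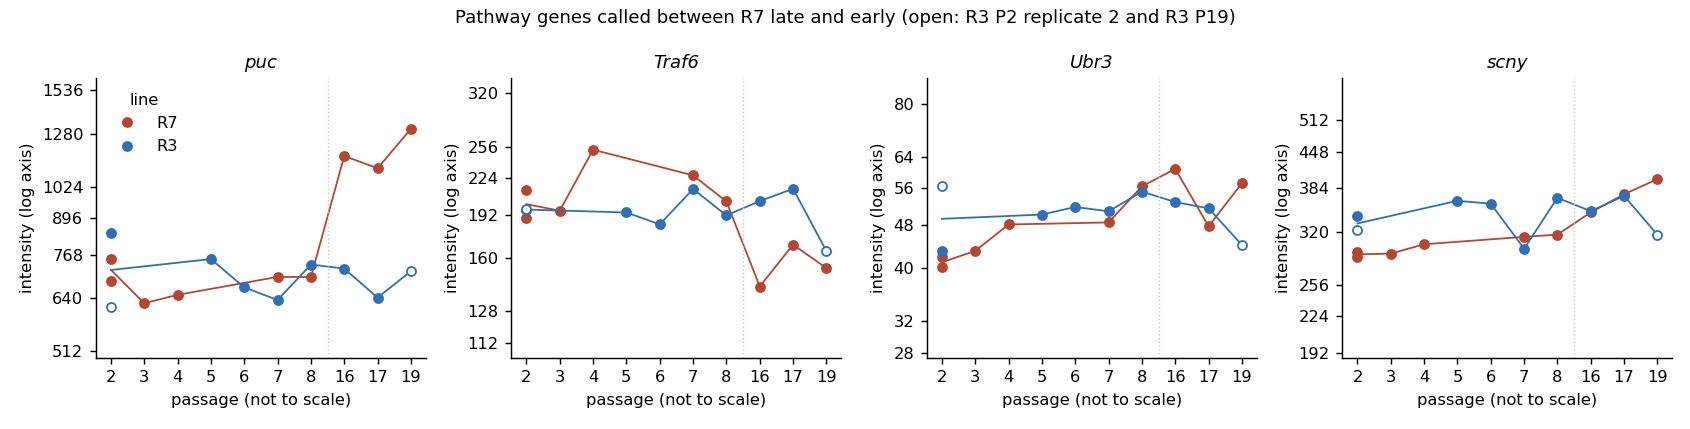
Deposited intensity (log axis) of the 4 further pathway genes called between late and early R7 arrays, against passage (evenly spaced, not to scale), drawn as for the 6 members. In puc the 3 late R7 arrays lie between 1106 and 1306, above every other array, and in Traf6 they lie between 142 and 169.

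Traf6, an adaptor of these receptors and of Toll signalling, had 155 ± 13.8 (SD, n = 3) in late and 199 ± 12.3 (n = 3) in early R7 arrays, 1.29-fold lower (log2 -0.37 ± 0.10 SE, limma adjusted p = 0.0262). The late R7 arrays did not overlap the early ones, but leaving out R7 P2 replicate 1 (adjusted p = 0.0972), its replicate 2 (0.0505), R7 P16 (0.0944) or R7 P19 (0.0793) ended the call. So did equal array medians (0.590) and quantile normalization (0.138). The ligand gene egr had a wider range in R7 than puc, with 1296 and 1115 at P2, 689 at P3, 333 at P4, 649 at P7, 656 at P8, 1403 at P16, 1300 at P17 and 885 at P19. It was lowest at P4, and its late and early arrays overlapped (log2 0.23 ± 0.33 SE, limma adjusted p = 0.678). Late against intermediate arrays differed by 0.85 ± 0.37 SE and were not called (adjusted p = 0.274). The gene egr, the receptor genes wgn and grnd, the adaptor gene Traf4 and the kinase genes hep and bsk were not called in R7, with wgn at 0.45 ± 0.15 SE (log2, adjusted p = 0.0543) and grnd above the floor on 2 arrays only. The result for wgn sat at the threshold, since it was called under 7 of 13 other processing settings and with 3 of the 18 arrays left out in turn, and Traf4 was called under 1 setting, without the 2 R3 arrays (adjusted p = 0.0285).

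Of the genes that act on the turnover of inhibitor and caspase proteins, Ubr3 and scny rose in R7. Ubr3, a ubiquitin ligase that binds Diap1, had 55.3 ± 6.75 (SD, n = 3) in late and 41.7 ± 1.45 (n = 3) in early R7 arrays, a weak signal near the floor (1.32-fold, limma adjusted p = 0.0303). The ubiquitin protease gene scny had 374 ± 26.0 (n = 3) in late and 291 ± 3.3 (n = 3) in early R7 arrays (1.28-fold, adjusted p = 0.0153). Late and early R7 arrays overlapped for neither gene. For Ubr3 the adjusted p was 0.0942 or 0.0846 when the first or the second P2 replicate of R7 was left out, 0.109 without P16 of R7 and 0.102 without P19 of R7, and its difference was 0.13 with all its probe sets averaged (0.103). That of scny was lost without R7 P2 replicate 2 (0.0554) or R7 P19 (0.0731), and with the replicate number and passage as a block (log2 0.30, adjusted p = 0.186).

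**Figure D5:**
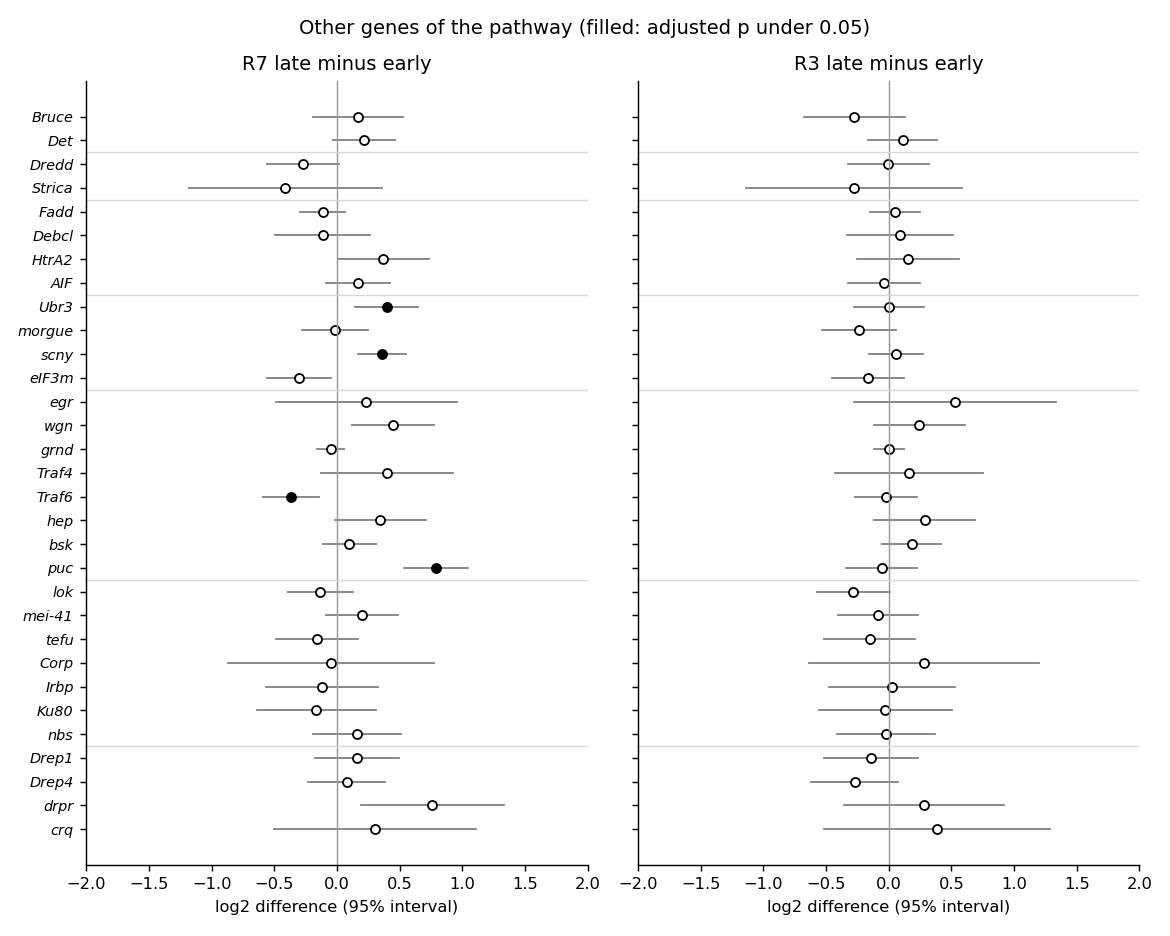
Log2 differences, late minus early, of the 31 tested further genes of the pathway in R7 (left) and R3 (right, all 9 arrays), with limma's 95% interval. Grey lines separate the gene groups, filled points have an adjusted p under 0.05, and these are Ubr3, scny, Traf6 and puc in R7.

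The other parts of the pathway gave few calls with all 18 arrays. Of the remaining caspase genes, Dredd (log2 -0.27) and Strica (-0.41) were not called between late and early R7 arrays, and Damm lay above the floor on 1 of the 18 arrays. The reaper group gene grim lay above the floor on 1 array, R7 P19 (36.1), and was not tested. Of the 7 tested DNA damage and p53 genes, among them the checkpoint kinase genes lok, mei-41 and tefu, 0 were called between the stages of R7 and 0 between those of R3, also without the 2 R3 arrays. The BCL-2 family gene Buffy lay at the floor on all 18 arrays, and Debcl was not called in R7 (log2 -0.11). Between the lines in late arrays, 1 of the 31 further genes was called, puc (3.23%, against 7.63% of tested probe sets). In that fit Irbp (log2 -0.34, R7 minus R3), Ku80 (-0.32) and Traf6 (-0.32) were not called. Without the 2 R3 arrays, 1 was called higher in R7 and 5 lower, 19.4% of the 31 against 11.2% of tested probe sets. The 5 were Debcl, morgue, Irbp, Ku80 and Traf6, the last 3 at -0.599, -0.645 and -0.434. Each of these last 3 was also called with 1 of the 18 arrays left out, which for Traf6 was R3 P19.

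Of the 4 tested nuclease and corpse clearance genes, drpr, the receptor by which fly cells engulf dying neighbours, came closest in R7. It had 2704 ± 432 (SD, n = 3) in late and 1592 ± 222 (n = 3) in early R7 arrays (log2 0.76 ± 0.26 SE, limma adjusted p = 0.0591). Without the 2 R3 arrays, which share in its estimated spread, it was called in R7 (adjusted p = 0.00367), as it was under 7 of the 13 other settings in all, and in R3 (log2 0.88 ± 0.23 SE, adjusted p = 0.0349), where Traf4 and hep were called as well. In these fits R3 early is 1 array. Haemocytes also express drpr, and their summed markers were lower in late than in early R7 arrays (1756 to 3420 against 4741 to 14899). The median difference of the 10 tested haemocyte markers there was -2.03 (log2), with srp at -0.16 and He at -4.55. In R3 without the 2 arrays the median was 0.32, with 6 of the 10 higher in late passages. The part of haemocytes in the drpr result was not tested.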

How the data were processed

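The authors deposited 1 intensity per probe set and array, already summarised and scaled. How this was done is not given in the sources used here. Per the labels' protocols, RNA was labelled with a 3' IVT kit. Of its 18952 probe sets 183 are controls, and array medians ran from 23.2 to 30.2. Arrays give no read depth, and their number limits precision. Symbols were updated through Entrez numbers, with 13647 probe sets having 1 symbol, 402 several and 4720 none.

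Values were floored at 32 and log2 differences were fitted with limma 3.58.1 in R 4.3.3 (lmFit, eBayes), in 1 fit over all 18 arrays (7 groups, residual degrees of freedom 11). A call is a Benjamini-Hochberg adjusted p under 0.05 over all 10200 tested probe sets. The fit was tried on simulated data with independent noise on each array and changes in R7 late alone. Such data cannot check the p-values for successive passages of the same line. Members were named always, and pathway genes where called, up to 4 per comparison by adjusted p. Other pathway genes were named after their values were seen. Genes like a member were sought where it lay above the floor on at least 9 arrays and spanned at least 1 (log2). The members, lists, floor and alternatives were chosen with earlier results of these data known. Deviations of same-numbered arrays of the lines from their group means had r from -0.33 to 0.29. In a group of 2 arrays the deviations are exact opposites, so this check cannot tell whether the numbers pair the arrays.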

Additional observations from a re-analysis of the deposited data

Results flagged for a closer look

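The change of puc from early to late passages differed between the lines by the interaction term (log2 0.844 in R7 minus R3, limma adjusted p = 0.0202). The call was lost without R3 P17, R7 P2 replicate 2 or R7 P19, with the compared arrays alone (0.0876) and with the replicate block (0.0509). It had 1192 ± 102 in late and 691 ± 64.9 in early R7 arrays (SD, n = 3 each), and 695 ± 46.0 (n = 3) in late and 730 ± 161 (n = 2) in early R3 arrays. In the group of 4 intermediate R3 arrays, scny at P7 (298) lay apart from the other three, the gap to the nearest being 0.873 of the whole range. It was the 1 of 10 genes looked at in this group with an array so far out, and chance marks about 1 in 20 such groups.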

How the results depend on the processing

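Results were recomputed under 13 other processing settings and with each of the 18 arrays left out. In R7 late against early the 2 calls became 1 after quantile normalization, at a floor of 16, with no filter, without the dimmest 30% (which removes skl), with P4 counted as early or as intermediate, and with the compared arrays alone, and 0 with equal array medians. The median of all tested probe sets lay at 0.16 (log2) with equal medians, against -0.03 as deposited, and skl at -0.55 (limma adjusted p = 0.0518). With P4 as early, skl was not called (adjusted p = 0.110). With a replicate block (the P2 replicate number and the later passage number shared by the lines), the 2 calls in R7 late against early became 1 and the 1 in R7 late against intermediate became 0, and no other count of members moved. The block also ended the calls of scny (adjusted p = 0.186) and Traf6 (0.0727) in R7 late against early, of Traf6 in R7 late against intermediate (0.0841) and of the puc difference of changes (0.0509). Whether the numbers pair the arrays could not be told.

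The 1 call in R7 intermediate against early became 0 without the dimmest 30% and with the compared arrays alone. The 1 in R7 late against intermediate became 0 at floors of 16 and 64, without the dimmest 30%, with P4 as early or intermediate and with the compared arrays alone. The 1 in R7 against R3 early became 0 without the dimmest 30% and with the compared arrays alone, and the 1 in late became 0 at a floor of 64 and without the dimmest 30%. The 0 in intermediate became 1 with P4 as intermediate, and the 0 in the difference of the changes became 1 at a floor of 64. With 1 array left out, the counts ran from 1 to 2 (R7 late against early), 0 to 1 (late against intermediate) and 0 to 1 (difference of the changes, 1 without R7 P3). The R3 counts of members stayed 0 throughout. The causes were not tested.

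Counts over all tested probe sets moved more, from 934 to 2989 in R7 late against early (2031 as reported), 41 to 1118 in intermediate against early (253), 137 to 952 in late against intermediate (477) and 0 to 1019 in R3 late against early (0). Between the lines they ran from 0 to 408 (109) in early, 68 to 392 (192) in intermediate and 188 to 1129 (778) in late arrays, and for the difference of the changes from 130 to 671 (297). With equal medians 71.5% of calls in R7 late against early were higher, with quantile normalization 63.9% and as deposited 43.9%. Signal over background limits skl, Ubr3 and grim.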
